A study of Rattus norvegicus with 12 samples.

Results

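The genes described here are the collagens and the small leucine-rich proteoglycans of the extracellular matrix, 33 of the 17172 genes counted in 12 RNA-seq libraries of rat ventral dentate gyrus, a part of the hippocampus rich in granule neurons. Members were taken by symbol: every gene named Col, a number, a and a number (27 collagen chains), and the 6 proteoglycan genes Dcn, Lum, Bgn, Fmod, Ogn and Prelp. Of the 33, 29 had at least 1 CPM (counts per mega, M, of the counts in genes) in at least 3 libraries, and the same 29 were tested.

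All rats were male and of Sprague-Dawley strain. FRL vehicle was the Flinders Resistant Line given tap water, and FSL vehicle was the Flinders Sensitive Line, a related line used as a model of depression, given tap water. The other groups were FSL rats given L-acetyl-carnitine (LAC), carnitine with an acetyl group, for 7 days in their drinking water (0.3% w/v, a daily intake near 210 mg/kg). They were labelled by outcome as LAC non-responders and LAC responders. Each group had 3 libraries, and all 12 were ribosomal-RNA-depleted and stranded, from total RNA of about 130 mg of tissue. The age of the rats, the number of animals per library and the basis of the responder label were not given in the sources used here. Hence p-values measure the spread between these libraries, which may be technical.

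Collagens are triple helices of 3 polypeptide chains. Fibrillar types make tensile fibres, type IV makes the sheet of basement membranes, and other types bind to fibrils or span the plasma membrane. Small leucine-rich proteoglycans bind collagen fibrils and set their spacing and diameter, and decorin also binds TGF-beta. In brain, fibrillar collagens and these proteoglycans are known chiefly from fibroblasts of the meninges, of the choroid plexus stroma and around larger vessels, while type IV collagen lies in the vessel basement membrane. Neurons and astrocytes are embedded mainly in another matrix of hyaluronan and chondroitin sulphate proteoglycans.

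The libraries held 5.91 to 8.14 M counts in genes, and members took 0.0748% to 0.289% of them. A count of 3 was worth 0.367 to 0.511 CPM, a floor that covers counting error only. Granule neuron markers summed to 434 to 675 CPM. Prox1, their defining transcription factor, was low in FRL vehicle 2 (10.4 CPM) and LAC responder 1 (9.18 CPM), against 51.6 to 129 CPM elsewhere. The whole list, Prox1 included, was lowest in FRL vehicle 2 at 434 CPM. In LAC responder 1 it summed to 574 CPM, within the range of the other libraries. Thalamus markers summed to 612 CPM in LAC responder 1 and to 131 to 246 CPM in the other 11 libraries, with Tcf7l2 at 156 CPM against 6.66 to 20.4 CPM. The summed level of 20 meningeal and fibroblast markers, none of them a member and none at 0, was 307 to 520 CPM in FRL vehicle, 457 to 3423 CPM in FSL vehicle, 574 to 885 CPM in non-responders and 237 to 493 CPM in responders. FSL vehicle 3 was highest at 3423 CPM and FSL vehicle 2 next at 1129 CPM. Choroid plexus markers, 13 of 14 detected with Otx2 at 0 throughout, summed to 5050 CPM in FSL vehicle 1, 8293 CPM in non-responder 1 and 703 CPM in FSL vehicle 3, against 140 to 245 CPM in the other 9 libraries. In whole tissue, fewer cells of a type and less RNA per cell cannot be told apart.

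Many members were high in the same libraries, and FSL vehicle 3 stood apart. This library was the highest of the 12 for 22 of the 29 tested members, and 17 members were there at least 2-fold over their own median level. The shares of all tested genes that did the same were not counted, so how far this is particular to the family is not known. The median over members of log2 (CPM + 0.5), taken against each gene's median over libraries, was 1.56 in FSL vehicle 3, 0.53 in FSL vehicle 2 and -0.07 in FSL vehicle 1. It lay between -0.42, in responder 2, and 0.35, in non-responder 3, in the other 9 libraries. The 5 tested proteoglycans reached a median of 2.59 in FSL vehicle 3 and 1.13 in FSL vehicle 2. The 3 FSL vehicle libraries thus differed widely. Many differences of members and medians of lists that moved by over 1.5 times without FSL vehicle 3 are given with and without it. A value given without such a pair need not be stable to that library.

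**Figure D1:**
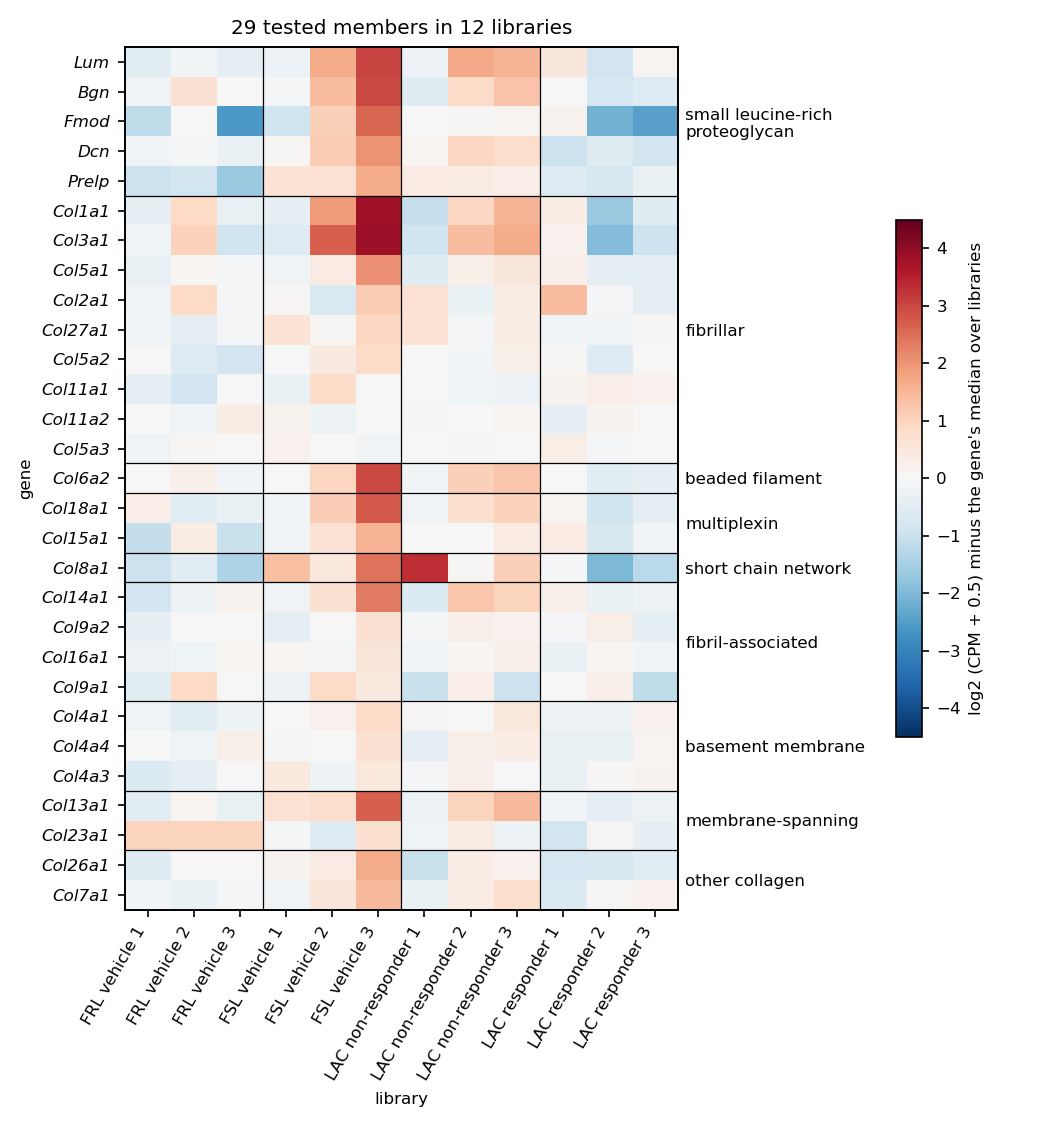
Log2 (CPM + 0.5) of each of the 29 tested members (rows, grouped by structural class) minus the gene's median over the 12 libraries (columns), with red above and blue below the median. FSL vehicle 3 is the highest library for 22 members (the share over all genes was not counted), while Col5a3 and Col11a2 are near white throughout.

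**Figure D2:**
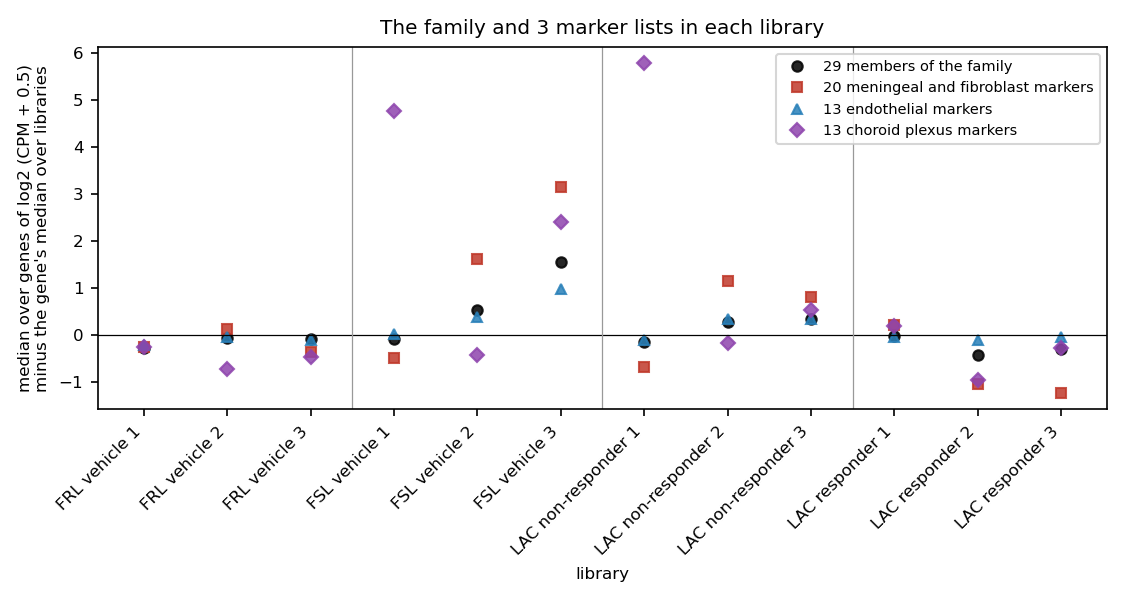
For each library, the median over genes of log2 (CPM + 0.5) minus the gene's median over libraries, for the 29 members and 3 lists of cell type markers. The members (black) are highest in FSL vehicle 3 at 1.56, where the 20 meningeal and fibroblast markers are also highest, and the choroid plexus markers are highest in non-responder 1 and FSL vehicle 1.

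The size of this variation differed widely between members, also within the fibrillar class. Over the 12 libraries the highest level was 79.3 times the lowest for Col8a1, 58.8 times for Col3a1, 47.8 times for Col1a1 and 42.7 times for Fmod. The lowest Col8a1 level, 4 counts in LAC responder 2, was near the floor, so its ratio is uncertain. The highest level was 1.36 times the lowest for Col5a3 and 1.64 times for Col11a2, which stayed at 44.2 to 60.1 CPM and 181 to 296 CPM. Both are minor fibril-forming chains, and neither showed the FSL vehicle 3 excess: their level there was 0.922 and 0.981 times the median of the other 11 libraries, against 18.0 times for Col1a1 and 16.8 times for Col3a1. Col11a1 (1.04 times) was also near its usual level in that library. Col4a3 (1.42 times) was highest there, at 14.3 CPM, closely followed by FSL vehicle 1 at 13.8 CPM.

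The comparison of the 2 vehicle lines asks how the family differs between the depression model and its control line. Of the 29 tested members, 27 were higher on average in FSL vehicle than in FRL vehicle and 2 were lower, where 48.4% of all 11750 tested genes were higher and 51.6% lower. The median log2 fold change was 1.20 over members and -0.01 over all tested genes. Prelp alone rose past the threshold (adjusted p below 0.05 by edgeR's quasi-likelihood test over all genes), in a comparison that called 8 genes, 0.0681% of those tested. At an unadjusted p below 0.05, 21 members were higher (9.35% of all genes) and 1, Col23a1, was lower (4.53%). Without FSL vehicle 3 the median was 0.58, with 24 members higher and 5 lower. Prelp was again the only member called, among 6 genes in all, 0.0506% of those tested. Without FSL vehicle 1 edgeR called 4 members, all higher (Col18a1, Dcn, Lum and Prelp), but also 271 genes in all, 2.28% of those tested.

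Prelp encodes a proteoglycan of basement membranes that binds both collagen and heparan sulphate chains. It measured 11.8, 13.3 and 7.15 CPM in FRL vehicle 1 to 3, 37.0, 37.1 and 75.8 CPM in FSL vehicle, 30.7, 29.8 and 29.2 CPM in the non-responders and 15.8, 14.4 and 19.3 CPM in responders. The order was FRL vehicle, responders, non-responders, FSL vehicle, and no library of a group overlapped a neighbouring group. FSL vehicle exceeded FRL vehicle by a log2 fold change of 2.20 ± 0.30 (SE, edgeR adjusted p = 0.0333). Without FSL vehicle 3 the difference was 1.77 (adjusted p = 0.0169). The call was lost in 13 of 22 alternatives, namely limma-voom, the fit of these 2 groups only, both replicate blocks and leaving out any 1 library of FRL vehicle, non-responders or responders. Over all 22 the log2 fold change was 1.77 to 2.39 and the adjusted p 1.91e-09 to 0.605. Meningeal and fibroblast markers also differed between the lines: all 20 were higher in FSL vehicle, with a median log2 fold change of 2.36 and none called. Their sum was 457 and 1129 CPM in FSL vehicle 1 and 2, where Prelp was about equal, and 3423 CPM in FSL vehicle 3. In FRL vehicle it was 307 to 520 CPM, a range that held FSL vehicle 1. Markers of pericytes and smooth muscle were higher for 11 of 13 (median 1.44, 246 to 284 CPM in FRL vehicle against 298 to 1173 CPM), and those of microglia and macrophages for 12 of 12 (median 0.53). Choroid plexus markers moved most, 13 of 13 being higher (median 5.07), and astrocyte markers were higher for 5 of 10 (median -0.01). The choroid plexus sum was 5050, 164 and 703 CPM in FSL vehicle 1 to 3, against 140 to 187 CPM in FRL vehicle. FSL vehicle 2 thus lay within the FRL vehicle range, and FSL vehicle 1 far above it. The medians without FSL vehicle 3 were 1.17 for the meningeal, 0.54 for the pericyte and 5.49 for the choroid plexus list. The part of these lists in the result was not tested.

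Decorin (Dcn), the prototype of the proteoglycans, measured 39.5, 41.0 and 34.4 CPM in FRL vehicle, 44.4, 94.1 and 173 CPM in FSL vehicle, 46.3, 82.4 and 74.7 CPM in the non-responders and 21.5, 29.4 and 24.1 CPM in responders. Every responder library was below every other library of the series, and every FSL vehicle library was above FRL vehicle. The difference between the lines was 1.44 ± 0.39 in log2 (edgeR adjusted p = 0.243), and 0.86 without FSL vehicle 3.

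Lumican (Lum) and fibromodulin (Fmod), both keratan sulphate proteoglycans that bind fibrils, spread more widely. Lum measured 2.96, 4.0 and 3.23 CPM in FRL vehicle, 3.57, 15.2 and 40.1 CPM in FSL vehicle, 3.56, 15.7 and 13.7 CPM in the non-responders and 6.49, 2.23 and 4.86 CPM in responders. Fmod measured 8.36, 18.9 and 2.72 CPM in FRL vehicle, 9.89, 40.1 and 116 CPM in FSL vehicle, 18.9, 19.6 and 20.8 CPM in the non-responders and 21.1, 3.96 and 3.10 CPM in responders. FSL vehicle 1 lay inside the FRL vehicle range for both genes, and FSL vehicle 3 far above it. Their log2 differences between the lines were 2.53 ± 0.79 and 2.45 ± 0.92 (edgeR adjusted p = 0.259 and 0.286), or 1.49 and 1.32 without FSL vehicle 3.

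Biglycan (Bgn), the closest relative of decorin, measured 15.3, 27.6 and 16.7 CPM in FRL vehicle, 15.9, 45.2 and 137 CPM in FSL vehicle, 11.6, 31.1 and 41.7 CPM in the non-responders and 17.3, 9.66 and 11.2 CPM in responders. Its groups overlapped in every pair, and the line difference was 1.73 ± 0.68 (edgeR adjusted p = 0.293), or 0.64 without FSL vehicle 3. Osteoglycin (Ogn) stayed low. It reached at most 1.40 CPM, in FSL vehicle 3, and was at 0 in FRL vehicle 3, non-responder 1 and responders 2 and 3.

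Prelp and Fmod are neighbours on rat chromosome 13, and Dcn and Lum on chromosome 7, with no protein-coding gene between them in the RefSeq gene table of the assembly GRCr8. These genes were all highest in FSL vehicle 3, as were most tested members (22 of 29 in all). The promoter windows of Fmod and Lum are shown because, of these genes, only they had a window. Each runs from 250 bases before to 50 bases after the start (RefSeq, GRCr8, both on the plus strand). Capitals mark CCAAT on either strand (ATTGG on the other).
Fmod, chr13:48045317-48045616: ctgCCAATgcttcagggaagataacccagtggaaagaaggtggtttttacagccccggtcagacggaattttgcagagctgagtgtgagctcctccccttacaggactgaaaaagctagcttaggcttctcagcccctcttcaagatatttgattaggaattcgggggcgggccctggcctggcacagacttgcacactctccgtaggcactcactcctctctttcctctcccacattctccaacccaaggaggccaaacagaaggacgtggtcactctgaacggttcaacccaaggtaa
Lum, chr7:34245456-34245755: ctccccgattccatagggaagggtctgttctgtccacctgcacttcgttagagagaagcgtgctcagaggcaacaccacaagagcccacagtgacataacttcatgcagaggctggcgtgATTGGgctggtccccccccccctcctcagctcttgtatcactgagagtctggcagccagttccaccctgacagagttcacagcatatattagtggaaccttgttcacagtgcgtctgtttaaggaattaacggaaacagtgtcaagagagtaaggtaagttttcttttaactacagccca
Of the 33 members, 25 had such a window, and CCAAT or ATTGG occurred in 8 of them, against 37.5% of all 33469 promoter windows. TATAAA or its reverse complement TTTATA occurred in 4 of the 25 (14.2% of all windows), in neither gene shown.

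Among the fibrillar collagens, the chains of type I and type III had the widest range. Col1a1, the main chain of type I, measured 20.4, 49.2 and 21.1 CPM in FRL vehicle, 20.6, 101 and 379 CPM in FSL vehicle, 12.8, 50.5 and 77.1 CPM in the non-responders and 33.2, 7.93 and 18.2 CPM in responders. Col3a1, the type III chain of soft tissue and vessel walls, measured 26.5, 63.7 and 16.2 CPM in FRL vehicle, 20.3, 203 and 444 CPM in FSL vehicle, 16.4, 80.4 and 99.2 CPM in the non-responders and 35.4, 7.56 and 15.9 CPM in responders. In both genes FSL vehicle 1 lay within the FRL vehicle range, so the lines overlapped. The log2 differences of 2.46 ± 0.95 and 2.64 ± 1.0 did not pass (edgeR adjusted p = 0.290 and 0.286), and were 1.03 and 1.66 without FSL vehicle 3. Col1a2, the partner chain of Col1a1 in type I collagen, was listed at 0 in all 12 libraries, including those where Col1a1 was highest, so its 0 is given as listed and no level is drawn from it.

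Col5a2, a type V chain that helps to start fibrils, had a smaller spread and no overlap between the lines. It measured 57.1, 38.8 and 32.9 CPM in FRL vehicle, 59.2, 77.9 and 107 CPM in FSL vehicle, 57.8, 53.6 and 69.5 CPM in the non-responders and 61.0, 38.6 and 58.8 CPM in responders. The difference between the lines was 0.92 ± 0.26 (edgeR adjusted p = 0.248). Its chromosome 9 neighbour is Col3a1, whose range over libraries was 58.8-fold against 3.24-fold for Col5a2. Col27a1, a fibrillar chain known from cartilage, was 35.7 ± 4.89 CPM in FRL vehicle and 60.8 ± 17.6 CPM in FSL vehicle (SD, n = 3), again without overlap and not called (0.77 ± 0.22, edgeR adjusted p = 0.251). Col2a1, the type II chain of cartilage, stayed between 0.387 and 3.18 CPM, and the summed cartilage and bone markers reached at most 41.4 CPM.

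The basement membrane chains varied less. Col4a1, the chain found in nearly all basement membranes, measured 53.8, 42.1 and 52.3 CPM in FRL vehicle, 61.5, 69.5 and 110 CPM in FSL vehicle, 62.5, 60.4 and 84.9 CPM in the non-responders and 52.5, 51.9 and 69.1 CPM in responders. The lines did not overlap, with a log2 difference of 0.71 ± 0.22 (edgeR adjusted p = 0.261), or 0.41 without FSL vehicle 3. Endothelial markers moved alongside: 12 of 13 were higher in FSL vehicle (median log2 fold change 0.71, or 0.41 without FSL vehicle 3). Their summed levels were 485 to 570 CPM in FRL vehicle and 614 to 1339 CPM in FSL vehicle, none at 0. The part of these markers was not tested.

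Col4a3 and Col4a4, partner chains of specialised basement membranes, ranged from 6.43 to 14.3 CPM and from 1.71 to 4.19 CPM over all libraries, a 2.22-fold and a 2.45-fold spread. They are head-to-head neighbours on chromosome 9, and their windows are shown because they share sequence: the start sites lie 413 bases apart and the windows share 88 bases, marked in capitals. The bases are given on each gene's own strand, plus for Col4a3 and minus for Col4a4, so the shared stretch of the second is the reverse complement of the first (RefSeq, GRCr8).
Col4a3, chr9:91323740-91324039: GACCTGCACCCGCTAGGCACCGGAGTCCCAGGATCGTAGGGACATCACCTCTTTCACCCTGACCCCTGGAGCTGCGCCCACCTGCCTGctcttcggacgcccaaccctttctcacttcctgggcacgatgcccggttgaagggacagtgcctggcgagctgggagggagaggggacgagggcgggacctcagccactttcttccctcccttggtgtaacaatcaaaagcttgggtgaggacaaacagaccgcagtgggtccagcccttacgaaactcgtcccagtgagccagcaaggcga
Col4a4, chr9:91323528-91323827: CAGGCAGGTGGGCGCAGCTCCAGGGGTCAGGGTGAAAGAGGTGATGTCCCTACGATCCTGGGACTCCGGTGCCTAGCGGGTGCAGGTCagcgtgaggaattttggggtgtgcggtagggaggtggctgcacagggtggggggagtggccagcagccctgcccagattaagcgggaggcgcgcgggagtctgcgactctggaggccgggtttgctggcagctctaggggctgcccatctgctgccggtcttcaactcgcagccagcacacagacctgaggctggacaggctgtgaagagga
Log2 differences between the lines were 0.61 ± 0.24 for Col4a3 and 0.23 ± 0.35 for Col4a4 (edgeR adjusted p = 0.288 and 0.817).

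Of the remaining network and fibril-associated chains, Col6a2 of the beaded filaments, Col18a1 and Col15a1 of the vessel-associated multiplexins, and fibril-bound Col14a1 followed FSL vehicle 3. Their levels there were 8.05, 7.58, 3.22 and 5.98 times the median of the other 11 libraries. Between the lines they differed by log2 1.81 ± 0.64, 1.85 ± 0.63, 1.42 ± 0.55 and 1.69 ± 0.66 in that order, with overlapping groups and edgeR adjusted p-values of 0.268 to 0.290. These differences were 0.53, 0.74, 0.83 and 0.65 without FSL vehicle 3. Col16a1 and Col9a2, also fibril-associated, stayed within 1.79-fold and 2.20-fold over all libraries. Col9a1 ranged from 0.675 to 4.26 CPM with no group apart. Col7a1, the chain of anchoring fibrils, had a line difference of 1.02 ± 0.45, or 0.44 without FSL vehicle 3.

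Col8a1, a short-chain collagen of the matrix beneath endothelia, had the widest range of any tested member, with its lowest library near the floor at 4 counts. It measured 1.54, 2.40 and 1.02 CPM in FRL vehicle, 9.73, 5.03 and 21.4 CPM in FSL vehicle, 39.3, 3.69 and 7.91 CPM in the non-responders and 3.31, 0.495 and 1.21 CPM in responders. The highest library was non-responder 1, which also had the highest choroid plexus markers (8293 CPM). FSL vehicle 1, second in choroid plexus markers, came next for Col8a1 after FSL vehicle 3. Their part in the level of Col8a1 was not tested. Every FSL vehicle library was above FRL vehicle, with a log2 difference of 2.83 ± 0.97 (edgeR adjusted p = 0.268), or 2.11 without FSL vehicle 3.

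The membrane-spanning collagens differed from each other in direction. Col13a1, which lies at cell adhesion sites, was 1.36 ± 0.444 CPM in FRL vehicle and 6.57 ± 6.06 CPM in FSL vehicle (SD, n = 3), higher in every FSL vehicle library (2.25 ± 0.67, edgeR adjusted p = 0.251). The difference was 1.17 without FSL vehicle 3. Col17a1, a hemidesmosome collagen of skin, passed 1 CPM in LAC responder 1 alone, at 2.08 CPM. Col6a4, a beaded filament chain, had at most 0.612 CPM. With Col1a2 and Ogn these are the 4 members that did not reach 1 CPM in 3 libraries.

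Col23a1, another membrane-spanning chain whose outer part can be shed, was lower in FSL vehicle instead. It measured 60.1, 59.4 and 59.9 CPM in FRL vehicle, 28.2, 19.5 and 49.5 CPM in FSL vehicle, 26.0, 37.3 and 25.0 CPM in the non-responders and 16.3, 31.1 and 22.8 CPM in responders. All 9 FSL-line libraries, treated or not, lay below all 3 FRL vehicle libraries, which agreed within an SD of 0.328 CPM. FSL vehicle was lower than FRL vehicle by a log2 fold change of -0.88 ± 0.31 (edgeR adjusted p = 0.273). Without FSL vehicle 3, the highest of the 9, it was -1.33 (adjusted p = 0.252). The mean of the 3 FSL-line groups against FRL vehicle, a comparison added after the values were seen, gave -1.09 ± 0.24 (edgeR adjusted p = 0.241), not past the threshold. In that comparison 26 members were higher (49.9% of genes) and 3 lower (50.1%), 0 members and 19 genes of all tested (0.162%) were called, 8 members were higher and 1 lower at an unadjusted p below 0.05 (3.80% and 2.86% of all genes), and Prelp gave 1.42 ± 0.26 (adjusted p = 0.101). Prelp was the 1 member above all FRL vehicle libraries in all 9 (1.09% of genes) and Col23a1 the 1 member below (0.868%).

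The promoter window of Col23a1 (RefSeq, GRCr8, plus strand) is shown because it was the 1 member lower in every FSL-line library than in FRL vehicle. Capitals mark GGGCGG or its reverse complement CCGCCC, which occurred 3 times.
Col23a1, chr10:36050077-36050376: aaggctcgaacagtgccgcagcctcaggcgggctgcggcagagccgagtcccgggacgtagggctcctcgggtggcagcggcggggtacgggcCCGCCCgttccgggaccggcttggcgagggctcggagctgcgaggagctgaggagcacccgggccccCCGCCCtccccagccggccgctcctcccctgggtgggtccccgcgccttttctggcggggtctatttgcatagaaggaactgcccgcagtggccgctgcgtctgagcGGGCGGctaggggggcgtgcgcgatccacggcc
This motif occurred in 13 of the 25 members with a window, against 33.1% of all promoter windows, and neither CCAAT nor TATAAA occurred here on either strand. No match in the windows shown overlapped a match of another motif.

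**Figure D3:**
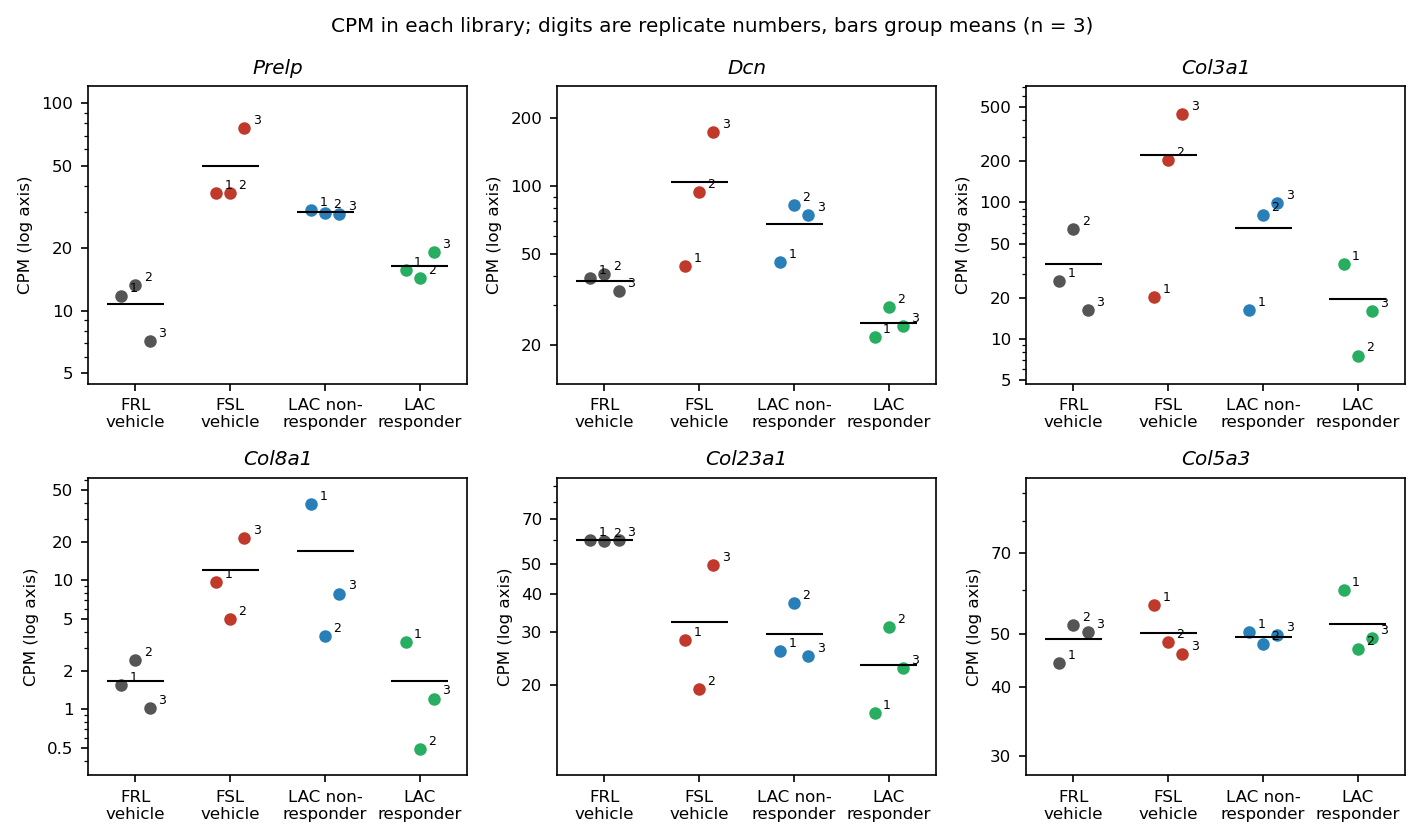
CPM (log axis, with a range of its own in each panel) of 6 members in the 12 libraries. Points are libraries labelled by replicate number and bars are group means (n = 3). The levels of Prelp are in the order FRL vehicle, responders, non-responders, FSL vehicle, Col23a1 is highest in the 3 FRL vehicle libraries, and Col5a3 stays between 44.2 and 60.1 CPM.

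Counted against FRL vehicle, 8 members were higher in every FSL vehicle library (7.56% of all genes), namely Prelp, Dcn, Col5a2, Col27a1, Col4a1, Col8a1, Col13a1 and Col26a1, and Col23a1 was lower in every one (6.26%). Col26a1, a small collagen known from reproductive organs, measured 0.90, 1.6 and 1.53 CPM in FRL vehicle, 1.78, 2.19 and 6.01 CPM in FSL vehicle, 0.527, 2.11 and 1.84 CPM in the non-responders and 0.734, 0.743 and 0.944 CPM in responders. Outside FSL vehicle 3 its levels are a few times the floor, and the lines differed by 1.31 ± 0.56 (edgeR adjusted p = 0.320), or 0.58 without FSL vehicle 3. The 7 tested members with an unadjusted p above 0.05 between the lines were Col2a1, Col4a4, Col5a3, Col9a1, Col9a2, Col11a2 and Col16a1.

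The responder comparison asks how the family differs between FSL rats labelled as responding to LAC and untreated FSL rats. It shares the FSL vehicle libraries with the comparison of the lines. Of 29 members, 27 were lower in responders and 2 higher, with a median log2 fold change of -1.04 against 0.01 over all genes, where 48.0% of genes were lower and 52.0% higher. No member and no gene (0%) passed the edgeR threshold, the smallest adjusted p over all genes being 0.237. At an unadjusted p below 0.05, 16 members were lower (9.17% of all genes) and 0 higher (4.61%), and DESeq2 called 5 members (Col13a1, Col3a1, Col8a1, Dcn and Prelp), all lower, among 181 genes in all (1.54%). In 6 members every responder library was below every FSL vehicle library (6.12% of genes): Prelp, Dcn, Col8a1, Col13a1, Col26a1 and Col27a1. In 0 members was every responder library above (6.37%).

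The proteoglycans Prelp and Dcn had the smallest p-values. Prelp differed by -1.60 ± 0.29 in log2 and Dcn by -2.06 ± 0.40 (edgeR adjusted p = 0.237 for both). Without FSL vehicle 3 these were -1.17 and -1.48 (adjusted p = 0.497 and 0.514). Col26a1 followed with -2.03 ± 0.58 (adjusted p = 0.266). Col3a1 and Col1a1 had large but uncertain differences of -3.50 ± 1.04 and -3.08 ± 0.98 (edgeR adjusted p = 0.266 and 0.270), with overlapping groups, since FSL vehicle 1 measured less than responder 1 in both. Lum, Bgn and Fmod gave -2.12 ± 0.76, -2.38 ± 0.70 and -2.56 ± 0.92. LAC responder 1 had low Prox1 and high thalamus markers, while its summed granule neuron markers, at 574 CPM, were within the range of the other libraries. Without that library Fmod gave -3.96, Col3a1 -4.25 and Col1a1 -3.68, none called. Col4a1 gave -0.48 ± 0.22, or -0.19 without FSL vehicle 3, and Col5a3 0.05 ± 0.11.

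Leaving out FSL vehicle 1 and leaving out FSL vehicle 3 had opposite effects on this comparison. Without FSL vehicle 3 the median over members was -0.45, with 27 of 29 still lower and 0 called. Col3a1 and Col1a1 were then at -2.52 and -1.64, and Lum, Bgn, Fmod and Col26a1 at -1.08, -1.28, -1.43 and -1.30. Without FSL vehicle 1, the library of FSL vehicle with the lowest levels of Col1a1, Col3a1, Lum, Bgn and Fmod, edgeR called 8 members, all lower: Bgn, Col18a1, Col1a1, Col3a1, Col6a2, Dcn, Lum and Prelp. It then called 349 genes in all, 2.94% of those tested. Meningeal and fibroblast markers moved with the members: all 20 were lower in responders (median log2 fold change -2.68, or -1.57 without FSL vehicle 3, 0 called). So were 13 of 13 choroid plexus markers (median -4.41) and 11 of 13 markers of pericytes and smooth muscle (-1.41, or -0.40 without FSL vehicle 3). Endothelial markers were lower for 12 of 13 (-0.58, or -0.24 without FSL vehicle 3). None of these was called. Choroid plexus markers summed to 170 to 232 CPM in responders, and FSL vehicle 2, at 164 CPM, was below that range. The part of these lists in the result was not tested. Decorin in responders, at 21.5 to 29.4 CPM, was also below the 34.4 to 41.0 CPM of FRL vehicle, a difference that was not tested.

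**Figure D4:**
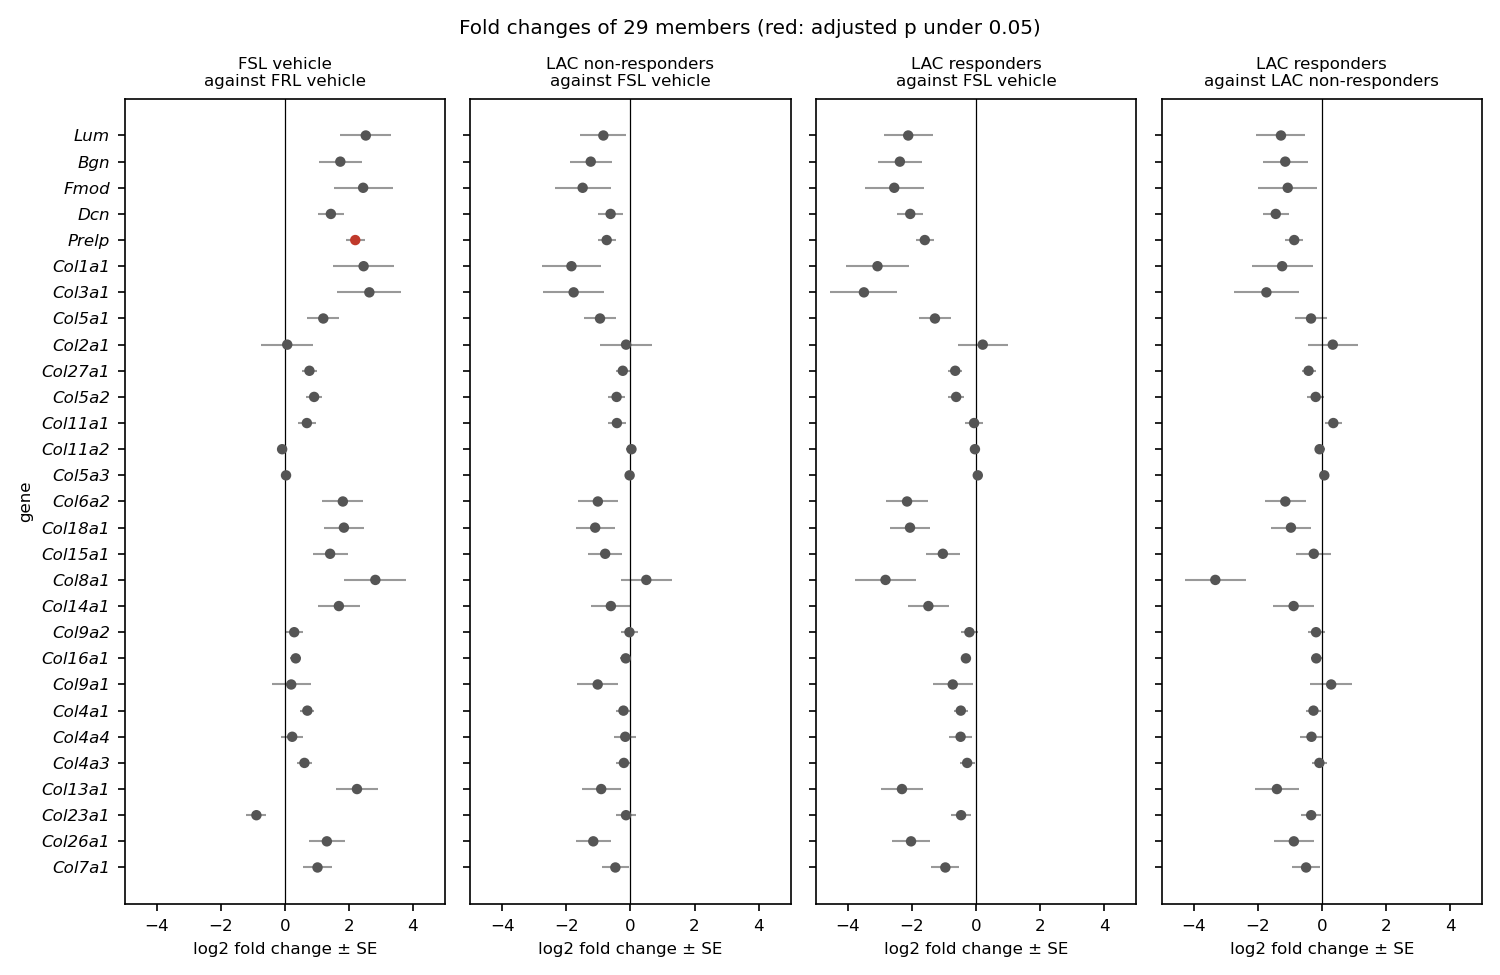
Log2 fold change with its standard error (edgeR) for each of the 29 tested members in 4 comparisons, on 1 common axis; red marks an adjusted p below 0.05. Prelp between the lines is the single red point, and Col23a1 lies on the left and Col5a3 near 0 in the first panel.

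The non-responder comparison asks the same of FSL rats labelled as not responding, against the same FSL vehicle libraries. Of 29 members, 27 were lower and 2 higher, with a median log2 fold change of -0.61 against 0.00 over all genes (51.1% of genes lower, 48.9% higher). No member and no gene (0%) was called by edgeR, where the smallest adjusted p was 0.976, and no member was called by DESeq2 or limma-voom. Prelp was the single member with an unadjusted p below 0.05 (2.32% of genes lower, 1.89% higher) and the single member without overlap (3.08% of genes lower, 4.70% higher): it differed by -0.74 ± 0.28 (edgeR adjusted p = 0.976). Col1a1 and Col26a1 came next with -1.84 ± 0.92 and -1.16 ± 0.54 (adjusted p = 0.976 for both). The lower family level rested on FSL vehicle 3, without which the median was 0.01, with 15 members higher and 14 lower, and Prelp gave -0.30, Col1a1 -0.39 and Col26a1 -0.42. All 20 meningeal and fibroblast markers were lower too (median -1.37, 0 called), against 15 of 20 without FSL vehicle 3 (median -0.37). Oligodendrocyte markers were higher for 10 of 13 (median 0.61), 8 at an unadjusted p below 0.05, 7 without overlap and 0 called. This was not particular to non-responders: in responders against FSL vehicle 10 of 13 were also higher (median 0.57). Between responders and non-responders their median was -0.10. The part of these lists was not tested. Col8a1 gave 0.50 ± 0.80, which became -1.06 without non-responder 1 and 1.22 without FSL vehicle 3.

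The comparison of responders with non-responders does not use the FSL vehicle levels, although those libraries share in the estimate of the spread. Here 25 members were lower in responders and 4 higher, with a median log2 fold change of -0.41 (0.00 over all genes, 49.7% of which were lower and 50.3% higher). No member and no gene (0%) was called by edgeR, the smallest adjusted p being 0.992, and DESeq2 and limma-voom called no member. At an unadjusted p below 0.05, 3 members were lower (1.96% of genes) and 0 higher (1.18%): Dcn at -1.44 ± 0.40, Col8a1 at -3.32 ± 0.95 and Prelp at -0.86 ± 0.29 (edgeR adjusted p = 0.992 for each). The same 3 were lower without overlap (5.55% of genes), and Col11a1, a minor fibrillar chain at 10.8 to 36.0 CPM, was higher without overlap (5.74%) by 0.36 ± 0.27. Col8a1 gave -1.78 without non-responder 1 and -4.30 without LAC responder 1. All 20 meningeal and fibroblast markers were lower in responders here too (median -1.25, 0 called), with a summed level of 574 to 885 CPM in non-responders against 237 to 493 CPM. Choroid plexus markers were lower for 13 of 13 (median -4.96). Their sum was 8293, 239 and 245 CPM in non-responders 1 to 3, against 170 to 232 CPM in responders, so non-responder 1 alone stood far above. The part of these lists was not tested.

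The machinery that makes, processes, binds and senses collagen was read through 9 lists, and edgeR called no gene of any list in any of the 4 comparisons. Of the genes that fold, modify and secrete procollagen, 15 of 18 tested were higher in FSL vehicle than in FRL vehicle (median log2 fold change 0.32, against -0.01 over all genes). Serpinh1, the collagen chaperone HSP47, gave 1.10 ± 0.29 and Fkbp10, a prolyl isomerase that acts on procollagen, 1.12 ± 0.36 (edgeR adjusted p = 0.238 and 0.267). Of the enzymes of procollagen processing and cross-linking, 9 of 11 were higher (median 0.69), with the smallest p-values for the transglutaminase Tgm2 at 1.74 ± 0.33 and the lysyl oxidase Loxl2 at 1.95 ± 0.58 (edgeR adjusted p = 0.117 and 0.251).

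Among proteins that bind to collagen fibrils, 17 of 20 were higher in FSL vehicle (median 1.33). Sparc, a collagen-binding matricellular protein, was 341 ± 8.72 CPM in FRL vehicle and 589 ± 143 CPM in FSL vehicle (SD, n = 3), a difference of 0.79 ± 0.19 (edgeR adjusted p = 0.210), and thrombospondin 1 (Thbs1) gave 2.41 ± 0.77. Laminins and their basement membrane partners were higher for 8 of 9 (median 1.37), with Lamb2 at 1.37 ± 0.37 and Lamc3 at 1.88 ± 0.51. The 1 tested gene among the other small leucine-rich proteoglycans, Tsku, was 2.22 ± 0.977 CPM in FRL vehicle and 6.03 ± 1.62 CPM in FSL vehicle (1.46 ± 0.41, edgeR adjusted p = 0.245).

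Degradation genes and inhibitors were higher for 12 of 14 (median 0.54), with the protease inhibitor Reck at 0.64 ± 0.15 and the membrane protease Mmp14 at 1.73 ± 0.51. Collagen receptors were higher for 7 of 9 (median 0.66), with the smallest p-values for the integrin subunits Itgb1 (0.66 ± 0.23) and Itga1 (1.48 ± 0.56). TGF-beta ligands, receptors and binding proteins were higher for 15 of 16 (median 0.63), with the receptor Tgfbr2 at 1.45 ± 0.28 (edgeR adjusted p = 0.127) and the latency protein Ltbp1 at 2.04 ± 0.64. The perineuronal net and brain proteoglycans, the matrix of the neuropil, did not share this direction: 4 of 11 were higher and 7 lower (median -0.10), and Tnr and Hapln2 gave -0.19 ± 0.09 and -0.56 ± 0.29. Without FSL vehicle 3 the medians were 0.58 for fibril-binding proteins, 0.63 for laminins, 0.57 for processing and 0.40 for degradation. They were then 0.37 for receptors, 0.15 for TGF-beta, 0.12 for folding (11 of 18 higher) and 0.02 for the perineuronal net.

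In responders against FSL vehicle the same lists had medians below 0 except the last. The medians were -0.40 for folding, -1.0 for processing, -1.40 for fibril-binding proteins, -1.20 for laminins, -0.76 for degradation, -0.48 for receptors and -0.65 for TGF-beta, against 0.15 for the perineuronal net. When FSL vehicle 3 was left out they were -0.69 for fibril-binding proteins, -0.62 for laminins, -0.48 for processing and -0.78 for degradation. For TGF-beta, receptors, folding and the perineuronal net they were then -0.31, -0.23, -0.08 and 0.02. Adamts2, which removes the procollagen amino-terminal propeptide, gave -1.46 ± 0.35, and Tgfbr2 gave -1.35 ± 0.28 (edgeR adjusted p = 0.266 and 0.244). Tsku gave -1.38 ± 0.41. In responders against non-responders the list medians ran from -0.49 for processing, where 11 of 11 genes were lower, to 0.10 for the perineuronal net. In non-responders against FSL vehicle they ran from -1.0 for Tsku alone, through -0.81 for fibril-binding proteins, to 0.01 for the perineuronal net, the fibril-binding median being -0.10 without FSL vehicle 3. A few genes stand in more than 1 list.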

How the data were processed

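RNA-seq of 12 libraries of ventral dentate gyrus was analysed, 3 in each of 4 groups. Per the deposited files, the authors' values are raw counts of reads, whole numbers with no normalization. The build rn5, Trimmomatic 0.33, FastQC 0.11.3, HTSeq 0.6.1, TopHat2 2.0.9 and edgeR 3.12.0 stand in the submitters' processing notes. Annotation and strand setting: not given in the sources used here. Overlapping or antisense genes therefore cannot be told apart. Lines for reads outside genes (47.7% to 52.7%), for ambiguous reads and for reads with several alignments (24.3% to 28.4%) were left out.

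All 17172 genes were taken. edgeR 4.0.16 in R 4.3.3 kept 11750 genes by its default filter on groups and fitted 1 mean per group over all 12 libraries (TMM factors 0.975 to 1.04, robust quasi-likelihood test, two-sided, Benjamini-Hochberg adjustment over all tested genes, threshold 0.05). The common biological coefficient of variation was 0.178. CPM are on TMM-scaled library sizes. The fit was tested on simulated data. SEs were derived from the quasi-likelihood F. Levels were not compared between genes, since lengths were not used.

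Per-library values are given for members past the threshold, the 3 of smallest p in each comparison and members that stand for structural classes; from each list, the 2 genes of smallest p. Col23a1 was followed after its values were seen, and Col8a1, Col27a1 and the other members named were described with their values known. Members and lists were chosen with earlier results of these data known. No counted gene carried the symbol Col4a2, Col6a1 or Col25a1, so these are not analysed here. The same holds for other chains, such as Col4a5, Col6a3 and Col12a1. Alternatives were other scaling and filters, DESeq2 1.42.0, limma-voom (limma 3.58.1), the compared groups only, a replicate block and each library left out.

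For the 3 same-number pairs of FSL vehicle and non-responders, deviations from the group means correlated at 0.581, 0.212 and 0.426. The labels name no pairing, and pairs of different number were not compared, so no pairing is established. Promoter windows and gene order come from RefSeq tables of the assembly GRCr8 (33 of 33 members matched, 25 with a window); no coordinate of the counted build was used.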

Additional observations from a re-analysis of the deposited data

How the results depend on the processing

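In FSL vehicle against FRL vehicle the count of called members was 1. It was 5 with DESeq2 (Col5a2, Col8a1, Dcn, Lum and Prelp) and 0 with limma-voom and with the compared groups only, where genes called in all went from 8 to 168, 5 and 2. Leaving out 1 library at a time gave 0 to 4: 4 without FSL vehicle 1 (Col18a1, Dcn, Lum and Prelp), 1 without FSL vehicle 2 or 3, and 0 without any 1 library of the other groups. The replicate block gave 0 with all libraries and 0 with the compared groups only, and changed no other count. Same-number correlations for these 2 groups were 0.0573, 0.214 and -0.0781. For Prelp the adjusted p ran from 1.91e-09 (DESeq2) to 0.605. In responders against FSL vehicle the count was 0, and 5 with DESeq2; leaving out 1 library gave 0 to 8, with 8 without FSL vehicle 1, while genes called in all went from 0 to 181 with DESeq2 and 349 without FSL vehicle 1. In the other 2 comparisons it was 0 in all 22 alternatives. In non-responders against FSL vehicle, leaving out 1 library gave log2 fold changes of -1.33 to 0.21 for Lum, -0.40 to 0.082 for Col4a1 and -0.40 to 0.31 for Col23a1, positive without FSL vehicle 3, and -1.06 (without non-responder 1) to 1.22 for Col8a1. None was called. The causes were not tested. Scaling moved the median of all genes by less than 0.1 in log2. With 0.5 CPM as the minimum 31 members passed, and with 1 CPM in all 12 libraries 25. Depth limits Ogn, Col6a4, Col17a1 and, outside FSL vehicle 3, Col26a1, at or within a few times the floor. It also limits the lowest libraries of Col2a1 (0.387 CPM), Col8a1 (0.495 CPM), Col9a1 (0.675 CPM) and Col13a1 (1.03 CPM).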
